A study of Mus musculus with 32 samples.

Results

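The proteasome genes were read in hippocampal RNA of 8 inbred mouse strains on the Affymetrix U74Av2 array. They were taken as every probe set whose single gene symbol in the platform annotation starts with Psma, Psmb, Psmc, Psmd, Psme, Psmf or Psmg, which gave 58 of 12422 non-control probe sets, for 46 genes. The strains were C57BL/6J, DBA/2J, BALB/cByJ, A/J, FVB/NJ, SJL/J, C3H/HeJ and the one titled hippocampus_129S1SvImJ. The mice were untreated, and the labels name no transgene, age or sex. Each strain was represented by 1 pool of hippocampal RNA from 6 mice and 1 cDNA, from which 2 cRNA preparations were made. Both were put on 2 arrays (4 arrays per strain, 32 in all). Because a strain is 1 pool, the spread reported here is that between preparations and hybridisations and not between animals, and p-values measure that technical spread. In these bulk samples fewer cells of a type and less RNA per cell cannot be told apart.

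The proteasome is the protease that degrades proteins marked with ubiquitin. Its core is a barrel of stacked rings, in which the outer rings of alpha subunits (Psma) gate the entry and the inner rings of beta subunits (Psmb) carry the cutting sites. The cap binds either end of the core, recognises and unfolds the substrate with its ring of ATPases (Psmc), and removes ubiquitin with subunits of its lid (Psmd). Under interferon the cutting subunits Psmb5, Psmb6 and Psmb7 can be replaced by Psmb8, Psmb9 and Psmb10, which gives the immunoproteasome, whose products favour presentation on MHC class I. Dedicated chaperones (Psmg1 to Psmg4 for the core, Psmd5, Psmd9 and Psmd10 for the cap) help assemble the particle, and the activators Psme1, Psme3 and Psme4 can take the place of the cap. In neurons the proteasome also takes part in the turnover of synaptic proteins. When the proteasome is impaired, the transcription factor Nfe2l1, paired with a small Maf protein such as Mafg, raises the subunit genes through antioxidant response elements in their promoters.

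The members fell into 19 core probe sets (14 genes), 22 cap probe sets (17 genes), 3 immunoproteasome probe sets, 8 of assembly chaperones (7 genes), 4 of activators (3 genes) and 2 of interacting proteins. The interacting proteins, Psmc3ip and Psme3ip1, entered through their symbols and are not subunits. No probe set had the single symbol Psmf1, the name of a proteasome inhibitor. Of the 58 probe sets, 49 (41 genes) were among the 7453 tested. These were the 60% with the highest mean log2 signal, down to a geometric mean signal of 21.3. Among the tested were 17 core, 19 cap, 1 immunoproteasome, 8 chaperone, 3 activator and 1 interacting protein probe sets. Values are log2 of the deposited signal, and the levels of members were compared between strains within a probe set only, since signals of different probe sets are not on a common scale.

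The promoters of 4 genes are shown because the strain differences reported here turn on them: Psmb6, which differed in DBA/2J, Psmd11, which differed in C57BL/6J and DBA/2J, and Psma6 and Psmd12, which had the largest falls that passed the test in BALB/cByJ. The sequences are the 250 bases before the annotated start, from RefSeq on the mouse build GRCm38.p6, all on the + strand and 5′ to 3′. This is the C57BL/6J reference, and sequences of the other strains were not used here. Capitals mark matches on either strand to 3 motifs: TGACNNNGC, the core of the antioxidant response element, GGGCGG, the GC box, and the CCAAT box.
Psmb6 (chr11:70525107-70525356): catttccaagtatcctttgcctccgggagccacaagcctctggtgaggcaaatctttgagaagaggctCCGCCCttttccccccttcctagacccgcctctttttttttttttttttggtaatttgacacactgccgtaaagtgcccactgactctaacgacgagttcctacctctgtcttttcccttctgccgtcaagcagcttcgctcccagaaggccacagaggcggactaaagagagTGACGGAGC
Psma6, first annotated start (chr12:55383972-55384221): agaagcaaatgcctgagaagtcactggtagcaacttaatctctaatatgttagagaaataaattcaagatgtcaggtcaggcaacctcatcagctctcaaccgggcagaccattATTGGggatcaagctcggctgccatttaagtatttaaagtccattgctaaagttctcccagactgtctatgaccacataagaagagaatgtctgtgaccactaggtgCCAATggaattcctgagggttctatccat
Psma6, second annotated start (chr12:55398575-55398824): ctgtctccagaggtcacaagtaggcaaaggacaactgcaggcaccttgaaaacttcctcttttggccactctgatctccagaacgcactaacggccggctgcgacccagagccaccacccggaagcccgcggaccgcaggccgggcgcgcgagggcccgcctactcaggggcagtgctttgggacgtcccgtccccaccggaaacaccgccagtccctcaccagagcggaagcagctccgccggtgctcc
Psmd11 (chr11:80428365-80428614): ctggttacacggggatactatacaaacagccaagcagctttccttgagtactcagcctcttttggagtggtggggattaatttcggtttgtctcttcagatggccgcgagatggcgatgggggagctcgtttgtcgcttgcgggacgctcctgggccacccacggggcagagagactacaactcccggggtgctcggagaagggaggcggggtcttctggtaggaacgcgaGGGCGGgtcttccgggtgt
Psmd12 (chr11:107479278-107479527): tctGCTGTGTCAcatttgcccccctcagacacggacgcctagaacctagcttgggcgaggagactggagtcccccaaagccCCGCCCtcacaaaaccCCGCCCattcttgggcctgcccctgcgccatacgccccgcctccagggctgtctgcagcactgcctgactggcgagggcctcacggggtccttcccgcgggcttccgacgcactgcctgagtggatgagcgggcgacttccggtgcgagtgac

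The Psmb6 window had an antioxidant response element core starting 9 bases before the start, and the Psmd12 window had one starting 247 bases before it on the reverse strand. Neither Psma6 window nor the Psmd11 window had that letter pattern. Of the 46 member genes, 39 matched the RefSeq promoter table, with 42 windows. The antioxidant response element core was found in 5 of these 42 (11.9%), those of Psmb5, Psmb6, Psmc6, Psmd9 and Psmd12, against 10.2% of all 32851 windows. The CCAAT box was found in 15 (35.7%) against 33.8%, and the GC box in 22 (52.4%) against 32.7%. A match is a run of letters in this window and not a measured binding site.

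The strains differed at 3 of the 49 tested members. By the moderated F-test of limma over the 8 strains (Benjamini-Hochberg adjusted p under 0.05), these were Psmb6, a catalytic beta subunit (adjusted p = 0.00539), Psmd11, a lid subunit (probe set 94796_at, adjusted p = 0.0166), and Psma6, an alpha subunit (adjusted p = 0.0196). The share of members, 6.12%, lay near the 4.58% called among all 7453 tested probe sets. The median range of the strain means was 0.66 for members and 0.68 for all tested probe sets. The range reached 2-fold for 7 of the 49 members and for 1655 of all 7453 tested probe sets. In the fit blocked on preparation, 17 members (34.7%) passed against 18.9% of all tested probe sets, namely 7 of the core, 8 of the cap and 2 chaperones. The main count of 3 was 5 without array 2 of DBA/2J, where 4.68% of all tested probe sets passed. It fell without preparation 1 of DBA/2J, which left 1 value for that strain. Leaving out all BALB/cByJ arrays, an alternative added after the data were seen, 2 members (Psmb6 and Psmd11) passed, where 3.3% of all tested probe sets did.

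**Figure D1:**
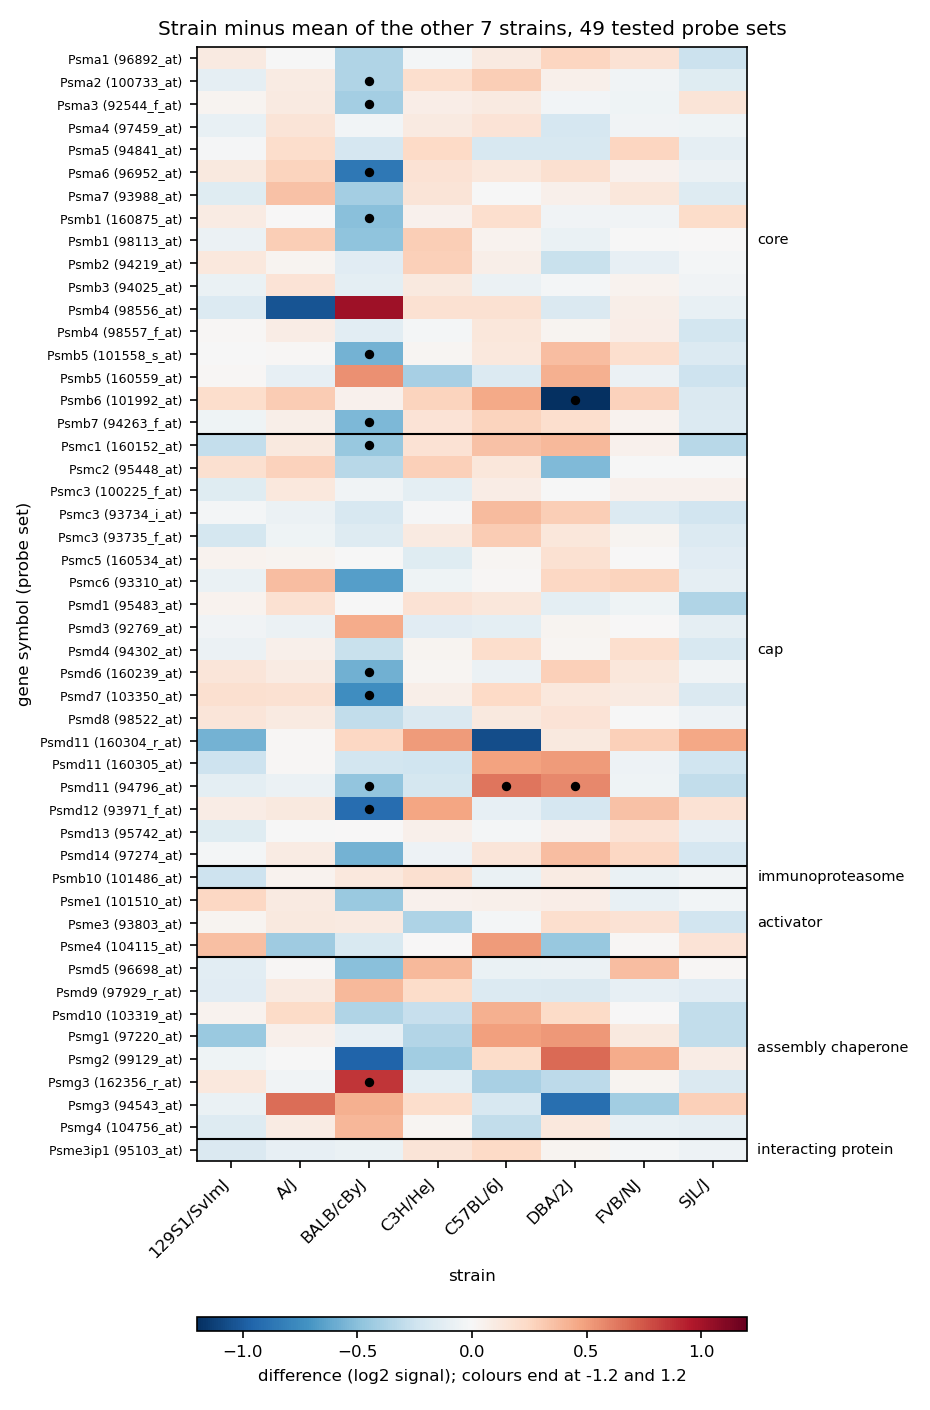
Difference of each strain from the mean of the other 7 strains (log2 scale, colour) for the 49 tested probe sets, grouped by subcomplex, with a dot where the contrast had an adjusted p under 0.05. The dots lie in BALB/cByJ (11 lower and 1 higher), DBA/2J (1 lower and 1 higher) and C57BL/6J (1 higher), and the lowest dotted value is that of Psmb6 in DBA/2J, -1.39.

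The signal of Psmb6, the subunit with the caspase-like cutting site, was lower in DBA/2J than in the other strains. The 4 DBA/2J arrays read 6.40, 6.58, 7.14 and 6.91, whereas the 28 other arrays read from 7.43 to 8.57 with a median of 8.15. All 4 DBA/2J arrays lay below every other array. The strain mean was 6.76 ± 0.38 (SD, n = 2 preparations) in DBA/2J, and the other strain means ran from 7.82 ± 0.17 in SJL/J to 8.37 ± 0.13 in C57BL/6J. The difference from the mean of the other 7 was -1.39 (SE 0.17), or 2.62-fold lower, with an adjusted p of 0.000498 (limma). It was the one member called lower in DBA/2J, where 0.953% of all tested probe sets were called lower.

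The fall of Psmb6 was seen on each day named in the array titles that DBA/2J shared with other strains. Against the other strains' arrays of the same day it was -1.68, -1.29, -1.17 and -1.35 on the 4 days. Strain accounted for 75.1% of the variance of this probe set over the 32 arrays. Without preparation 1 of DBA/2J the difference was -1.12 with an adjusted p of 0.0513. A single probe set read Psmb6, so no other probe set of the gene was compared. Whether a DBA/2J sequence difference under its probes had a part in this signal was not tested. The Psmb6 profile over the 8 strain means had r = -0.07 with the mean profile of the other core and cap members. Of the other catalytic subunits, Psmb7 had 0.96, and Psmb5 had 0.85 on probe set 101558_s_at but -0.60 on 160559_at.

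Markers of hippocampal neurons were also lower in DBA/2J. All 8 tested probe sets of that list were below the mean of the other strains there, with a median of -0.59, and 3 passed the test as lower (Camk2a on 2 probe sets, and Nrgn). Their part in the Psmb6 value was not tested. The neuron list had a DBA/2J median of -0.01, with 5 of 9 below 0. Of the 17 core probe sets 9 were below 0 in DBA/2J (median -0.02) and Psmb6 alone was called lower, and of the 19 cap probe sets 4 were (median 0.13). With the preparation block 5 members passed in DBA/2J, 2 as higher (4.08%), where 1.78% of all tested probe sets were called higher, and 3 as lower (6.12%), where 2.48% were called lower. They included the ATPases Psmc1 (0.39, adjusted p = 0.0439) and Psmc2 (-0.53, adjusted p = 0.00283), and the chaperone Psmg3 (94543_at, -0.91, adjusted p = 0.0239). Without the block Psmc2 had an adjusted p of 0.0536.

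**Figure D2:**
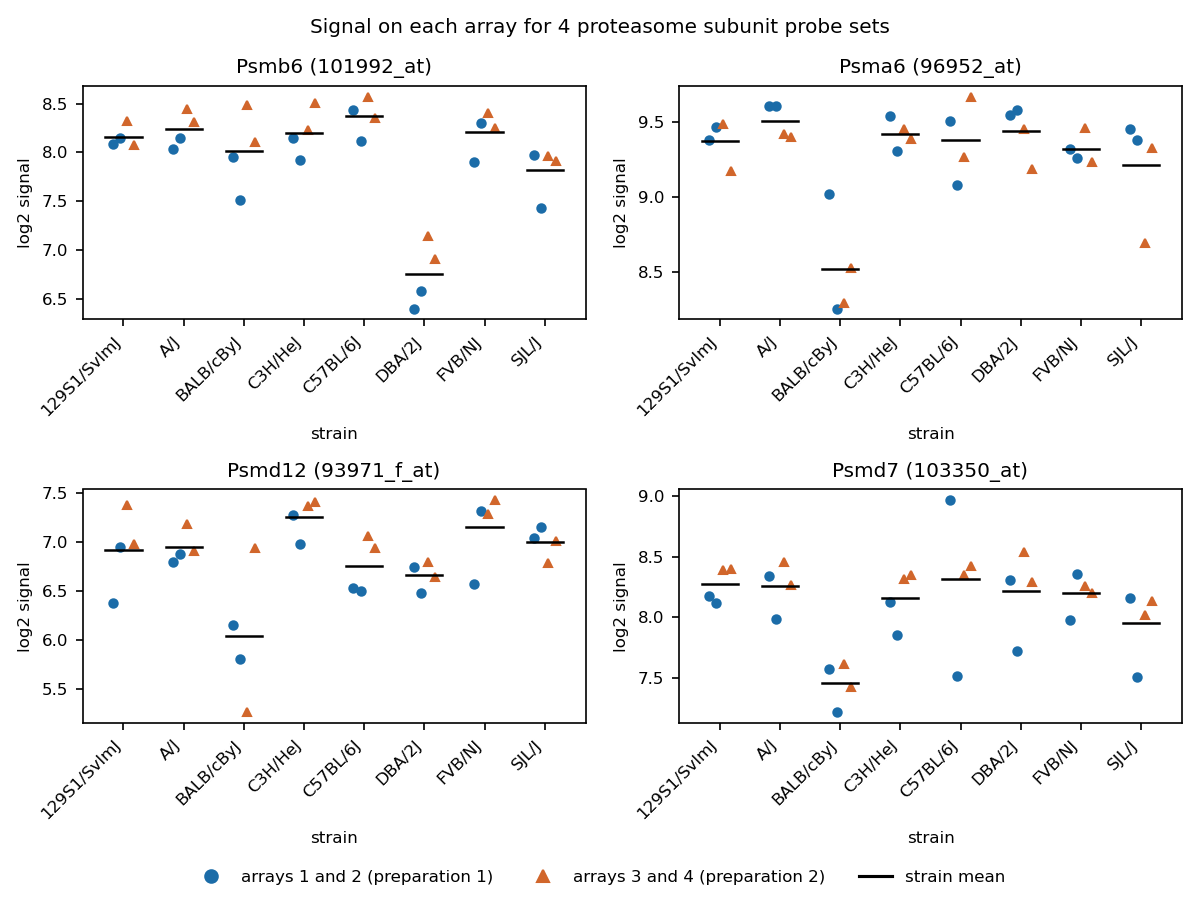
Log2 signal on each of the 4 arrays of every strain for Psmb6, Psma6, Psmd12 and Psmd7, with each point an array. The 4 DBA/2J arrays of Psmb6 (6.40 to 7.14) lie under all others, and BALB/cByJ has the lowest strain mean for the other 3 genes.

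BALB/cByJ stood apart over a larger number of members. Against the mean of the other 7 strains 11 members were lower (22.4%), where 5.81% of all tested probe sets were called lower, and 1 was higher (2.04%), where 3.11% were called higher. The 11 were 6 core and 5 cap probe sets. BALB/cByJ was the lowest of the 8 strains for 24 of the 49 members (49.0%), for 11 of 17 core (64.7%) and 9 of 19 cap probe sets (47.4%), against 27.5% of all tested probe sets. The median difference was -0.36 for the core (14 of 17 below 0), -0.27 for the cap (16 of 19 below 0), 0.14 for the chaperones (4 of 8 below 0) and 0.0017 for all tested probe sets. The medians moved with single preparations: without preparation 1 of BALB/cByJ they were -0.25 for the core, -0.10 for the cap and -0.02 for the chaperones, and without its preparation 2 they were -0.30, -0.35 and -0.13. With arrays centred on their median that of the chaperones was -0.0079. Both BALB/cByJ preparations lay below every preparation of the other strains for 10 members (20.4%), against 5.68% of all tested probe sets, and above all of them for 4 (8.16%), against 8.04%.

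The BALB/cByJ arrays differed from the others in their days as well. By their titles, arrays 3 and 4 were later than the second preparation of the other strains, apart from array 4 of FVB/NJ, which shared the day of array 3. The day of array 4 was shared with no other strain. Strain and day cannot be told apart for that array.

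Of the alpha subunits, Psma6 showed the largest difference. Its BALB/cByJ arrays read 9.02, 8.25, 8.29 and 8.52, and the 28 other arrays from 8.69 to 9.67 with a median of 9.41. In BALB/cByJ 3 arrays lay below all others, and array 3 of SJL/J, at 8.69, lay below BALB/cByJ array 1. The mean was 8.52 ± 0.16 (SD, n = 2) in BALB/cByJ against 9.38 over the other strains, a difference of -0.86 (SE 0.12), 1.82-fold lower (adjusted p = 0.00148, limma). Within shared days the difference was -0.46, -1.15 and -0.95, and the last of these rests on 1 other array. Psma2 (8.89 against 9.26, adjusted p = 0.0406) and Psma3 (9.15 against 9.56, adjusted p = 0.0424), both alpha subunits of the gate ring, differed by less, -0.37 and -0.41. Without preparation 2 of BALB/cByJ the Psma3 difference was -0.27 (adjusted p = 0.275). The Psma3 probe set carries a suffix, _f_at, that marks probes which can read related transcripts. The probe sets of Psmb7 (94263_f_at) and Psmd12 (93971_f_at), also called lower in BALB/cByJ, carry the same suffix.

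The beta subunits called lower in BALB/cByJ were Psmb1, Psmb5 and Psmb7. Psmb1, a structural beta subunit, was lower by 1.41-fold on probe set 160875_at (9.27 ± 0.02 against 9.77, adjusted p = 0.00994), and on 98113_at its difference was -0.49 with an adjusted p of 0.0582. Psmb7, with the trypsin-like site, read 7.86 ± 0.15 against 8.40, 1.45-fold lower (adjusted p = 0.0211). Psmb5, with the chymotrypsin-like site, read 8.22 ± 0.14 against 8.79 on 101558_s_at, 1.48-fold lower (adjusted p = 0.0406). Psmb6, the third of these catalytic subunits, was not called: its BALB/cByJ value was 8.01 ± 0.40 and the difference from the other 7 was 0.05 (adjusted p = 0.869). That mean includes the low DBA/2J value. Against the other 6 strains, at 8.17, the difference was -0.15, a comparison added after the data were seen and given with no test.

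In the cap the largest differences that passed the test in BALB/cByJ were in lid subunits. Psmd12 read 6.15, 5.81, 5.26 and 6.94 on the 4 arrays, against 6.38 to 7.43 (median 6.96) on the others, so that 3 arrays lay below all others and the fourth lay within them. The difference was -0.91 (SE 0.18), 1.88-fold lower (adjusted p = 0.00939), and it was -0.49 with an adjusted p of 0.156 without array 3 of BALB/cByJ. Psmd7, the partner of the deubiquitinating subunit Psmd14, read 7.57, 7.21, 7.61 and 7.42, and the others 7.51 to 8.97 (median 8.26). In BALB/cByJ 2 arrays lay below all others. Its difference was -0.74 (SE 0.14), 1.67-fold lower (adjusted p = 0.00709), and within shared days -0.72, -0.57 and -0.59. Psmd6, a lid subunit, was 1.49-fold lower (7.88 against 8.46, adjusted p = 0.0178). Psmc1, an ATPase of the base, was 1.37-fold lower, a difference of -0.45 (adjusted p = 0.0402) that was -0.29 (adjusted p = 0.145) without array 2 of BALB/cByJ. Psmd11 is described separately with its 3 probe sets.

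The one member called higher in BALB/cByJ was the core assembly chaperone Psmg3. On probe set 162356_r_at it read 7.86, 8.16, 7.70 and 8.10 in BALB/cByJ and 6.13 to 7.92 on the other arrays, a difference of 0.86 (SE 0.24), 1.82-fold higher (adjusted p = 0.0424). The call was lost with arrays centred on their median (adjusted p = 0.0848) and with no variance trend (0.0654). Of the BALB/cByJ arrays 2 lay above all others. The suffix _r_at marks probes that did not meet the array's usual selection rules. The second Psmg3 probe set, 94543_at, read 6.28 ± 0.57 in BALB/cByJ, with a difference of 0.43 and an adjusted p of 0.262. Its lowest strain mean was 5.12 in DBA/2J and its highest 6.5 in A/J (F-test adjusted p = 0.184), and its r with the first over the 8 strain means was 0.436.

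Under the preparation block the BALB/cByJ count rose to 20 lower (40.8%), where 16.6% of all tested probe sets were called lower, and 4 higher (8.16%), where 13.8% were. The added lower calls were Psma7, the second Psmb1 probe set, Psmc2, Psmc6, Psmd14, Psmd5, Psmd8, Psme1 and Psmg2, and the added higher calls Psmb4 (98556_at), Psmd3 and Psmg4. For fits that left out an array or preparation, the share of all tested probe sets called in BALB/cByJ is not given here. Whether members lost more calls than other probe sets was not tested. The main count of 12 was 6 without array 2 of BALB/cByJ. The count was lower still without either preparation of BALB/cByJ, which left 1 value for that strain. It was 6 without preparation 2 of DBA/2J or of FVB/NJ, or without array 1 of C3H/HeJ or of C57BL/6J, or array 2 of FVB/NJ. It was 7 without preparation 2 of hippocampus_129S1SvImJ, A/J or C57BL/6J, or without array 1 of SJL/J. Over the 48 fits that left out 1 array or preparation, Psma2, Psma3, Psmb5, Psmc1, Psmd11 and Psmg3 kept their BALB/cByJ calls in 31, 29, 34, 32, 30 and 31, and Psmb1, Psmb7, Psmd6, Psmd7 and Psmd12 in 46, 46, 45, 47 and 46. With no filter on low signals Psma2, Psma3, Psmc1 and Psmd11 were not called (adjusted p from 0.0538 to 0.0561), with no variance trend these, Psmb5 and Psmg3 were not (0.0639 to 0.0829), and with quantile normalization Psma2 and Psmb5 were not (0.0769 and 0.0527).

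The preparation of FVB/NJ array 2 was uncertain. The series design puts it in preparation 1, but its title carries the day of the other strains' array 3, and its sense-strand control signal was 5.33, against 7.39 on array 1 and 5.09 and 5.62 on arrays 3 and 4. Counted in preparation 2, it left 6 members called in BALB/cByJ (4.2% of all tested probe sets), and Psma2, Psma3, Psmb5, Psmc1, Psmd11 and Psmg3 were not called (adjusted p from 0.0594 to 0.113).

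The Psma6 difference kept its call under each of the 59 alternatives in which BALB/cByJ was present, with adjusted p from 9.88e-05 to 0.0292.

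A technical measure moved with these differences. The sense-strand control probe sets had a mean log2 signal of 7.60 to 7.84 on the 4 BALB/cByJ arrays and of 4.91 to 7.51 on the other 28, and within the latter the first preparation of SJL/J, of C3H/HeJ and of A/J, and FVB/NJ array 1, were at the upper end. The 3′ minus 5′ difference of the Gapdh controls was -0.37 to -0.24 in BALB/cByJ and -0.52 to -0.02 elsewhere. That of the Actb controls was -0.18 to 0.46 in BALB/cByJ and 0.05 to 0.68 elsewhere. Its lowest value, -0.18, was on BALB/cByJ array 3, the array without which the Psmd12 call was lost. The part of these measures in the proteasome values was not tested. Preparation 1 of BALB/cByJ was also set only against preparation 1 of these 3 strains (SJL/J, C3H/HeJ and A/J). The sides were not matched in sense-strand control signal, at 7.64 and 7.84 in BALB/cByJ and 6.95 to 7.51 in the 3 strains. This comparison was added after the data were seen and is given with no test. In it 36 of 49 members (73.5%) were below the mean of those 3, against 47.8% of all tested probe sets. Of the members 27 (55.1%) were below all 3 strains, against 30.0% of all tested probe sets. Above all 3 were 7 members (14.3%), against 32.9% of all tested probe sets. Among probe sets with a mean log2 of 6.94 or more, 10 of 37 members (27.0%) were called lower in BALB/cByJ against 11.3% of 2923. Centring each array on its median moved the median of all tested probe sets in BALB/cByJ to -0.15 and the calls over all of them from 433 lower and 232 higher to 1081 and 86, with 19 members lower and 0 higher.

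**Figure D3:**
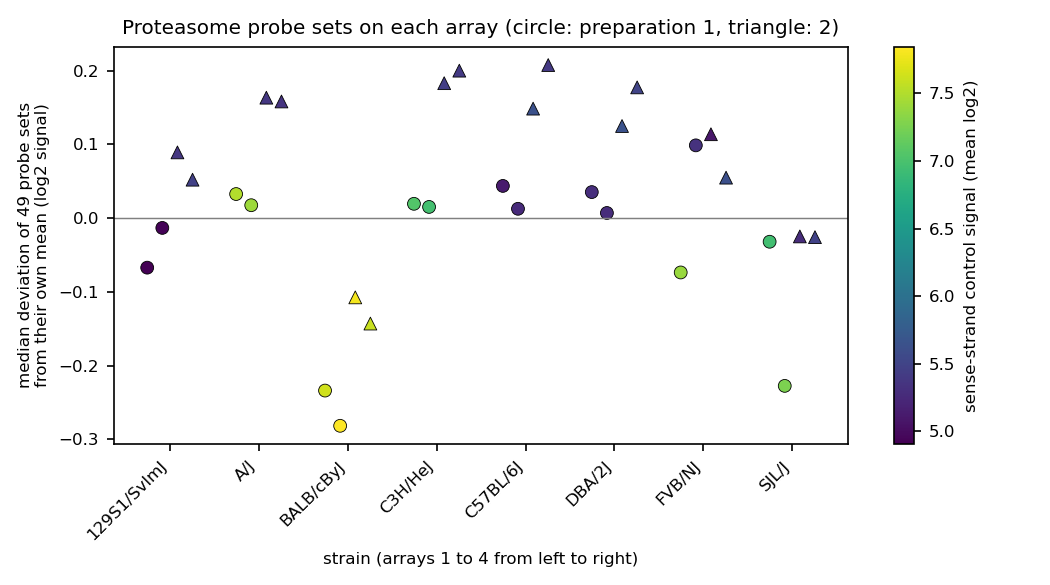
Median deviation of the 49 tested members from their own mean over the 32 arrays (log2 scale), one point per array, coloured by the mean log2 signal of the sense-strand controls. BALB/cByJ arrays lie between -0.28 and -0.11 with control signals of 7.60 to 7.84, and the other 28 arrays lie between -0.23 and 0.21.

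Markers of other cell types in BALB/cByJ were measured beside these values. The summed signal of the microglia list was 1803 to 2155 on BALB/cByJ arrays and 1665 to 2325 on the others, with 0 of 14 tested probe sets called in either direction. For astrocytes the sums were 3807 to 4825 against 3999 to 5554, with 2 of 11 lower (Gja1 and Aqp4), and for neurons 10793 to 12236 against 9454 to 13769, with 2 of 9 lower (Nefl and Syt1). Oligodendrocyte markers summed to 4640 to 5191 against 4197 to 7602, with 0 of 12 called. Endothelial markers summed to 439 to 499 against 372 to 585, with 0 of 5 called. Choroid plexus markers summed to 346 to 497 against 272 to 703, with 1 of 5 lower (Ttr), and blood markers to 746 to 1050 against 726 to 1748, with 1 of 2 lower (Hbb-b2). Hippocampal neuron markers summed to 3709 to 4389 against 2149 to 5024, with 1 of 8 higher (Nrgn). No marker probe set was at the signal floor on all BALB/cByJ arrays or on all other arrays. The part of cell composition in the proteasome values was not tested.

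Psmd11, a lid subunit, was called higher in C57BL/6J and DBA/2J on one of its 3 tested probe sets. On 94796_at the C57BL/6J arrays read 8.56, 7.62, 8.49 and 8.50, and the DBA/2J arrays 8.54, 7.99, 8.30 and 8.10. Apart from array 2 of both strains, they lay above every array of the other 6 strains, the highest of which was 8.04 in C3H/HeJ. The strain means were 8.29 ± 0.29 and 8.24 ± 0.05, those of the 5 strains without a call 7.47 to 7.68, and BALB/cByJ was lowest at 7.31 ± 0.18. C57BL/6J differed from the mean of the other 7 by 0.64 (SE 0.13), 1.56-fold higher (adjusted p = 0.0183), where 0.912% of all tested probe sets were called higher. DBA/2J differed by 0.58, 1.49-fold higher (adjusted p = 0.0446), where 0.483% were called higher, and BALB/cByJ by -0.48 (adjusted p = 0.0409).

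Within shared days the Psmd11 difference on 94796_at was 0.70, 0.28, 0.75 and 0.77 in C57BL/6J and 0.69, 0.72, 0.53 and 0.30 in DBA/2J. The C57BL/6J call was lost without preparation 2 of C57BL/6J (adjusted p = 0.321), without its array 1 (0.327, with a difference of 0.41) and without array 1 of C3H/HeJ (0.0502). The DBA/2J call held in 15 of 48 fits that left out 1 array or preparation. The F-test was lost without array 1 (adjusted p = 0.244) or preparation 2 (0.0583) of C57BL/6J and without either preparation of DBA/2J (0.0685 and 0.0571).

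The other Psmd11 probe sets did not all follow the first. On 160305_at the C57BL/6J mean was 6.90 ± 0.37 and the DBA/2J mean 6.92 ± 0.22, with the other strains at 6.25 to 6.49, and its r with 94796_at over the 8 strain means was 0.956 (F-test adjusted p = 0.732). On 160304_r_at the order was turned: C57BL/6J was lowest at 4.99 ± 0.42, with a difference of -1.07 (adjusted p = 0.0596, and 0.0151 with the preparation block), and r with 94796_at was -0.61. The highest strain there was C3H/HeJ at 6.37.

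**Figure D4:**
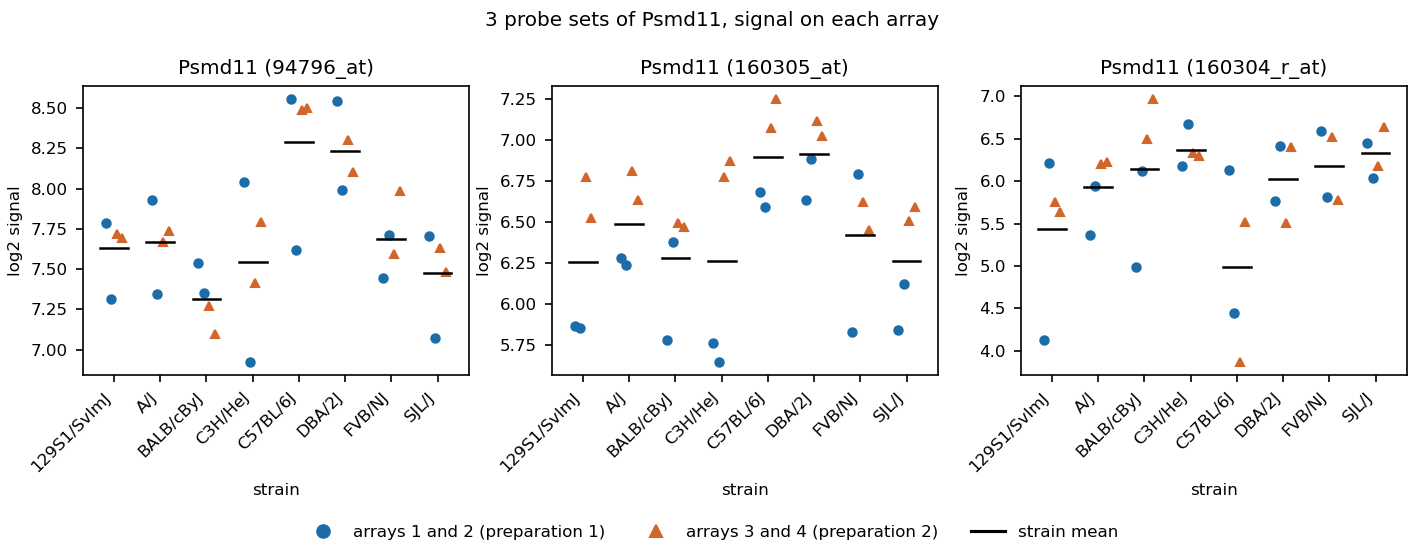
Log2 signal of the 3 tested Psmd11 probe sets in each strain, points for single arrays and a line for the strain mean. C57BL/6J and DBA/2J have the highest means on 94796_at (8.29 and 8.24) and on 160305_at (6.90 and 6.92), whereas C57BL/6J has the lowest on 160304_r_at (4.99).

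The immunoproteasome subunits gave 1 tested probe set. Psmb10, which takes the place of Psmb7, read from 7.69 ± 0.11 in hippocampus_129S1SvImJ to 8.08 ± 0.15 in C3H/HeJ, with an F-test adjusted p of 0.687, and was called in no strain. Its BALB/cByJ value, 8.02 ± 0.16, differed from the rest by 0.12, while Psmb7 differed there by -0.54, though the difference between these differences was not tested. Psmb8 and Psmb9, which replace Psmb5 and Psmb6, were below the signal limit and were not tested. Psmb9 had its highest strain mean in DBA/2J, 3.89 ± 0.96, with arrays at 5.06, 4.09, 2.56 and 3.87, and the other strain means lay between 2.20 and 3.13. The lowest DBA/2J array lay within the others' values. Psmb8 ran from 3.57 ± 1.62 in C57BL/6J to 4.97 ± 0.30 in A/J, and the SD of the strains reached 1.62, so that the order of the strains was not resolved.

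**Figure D5:**
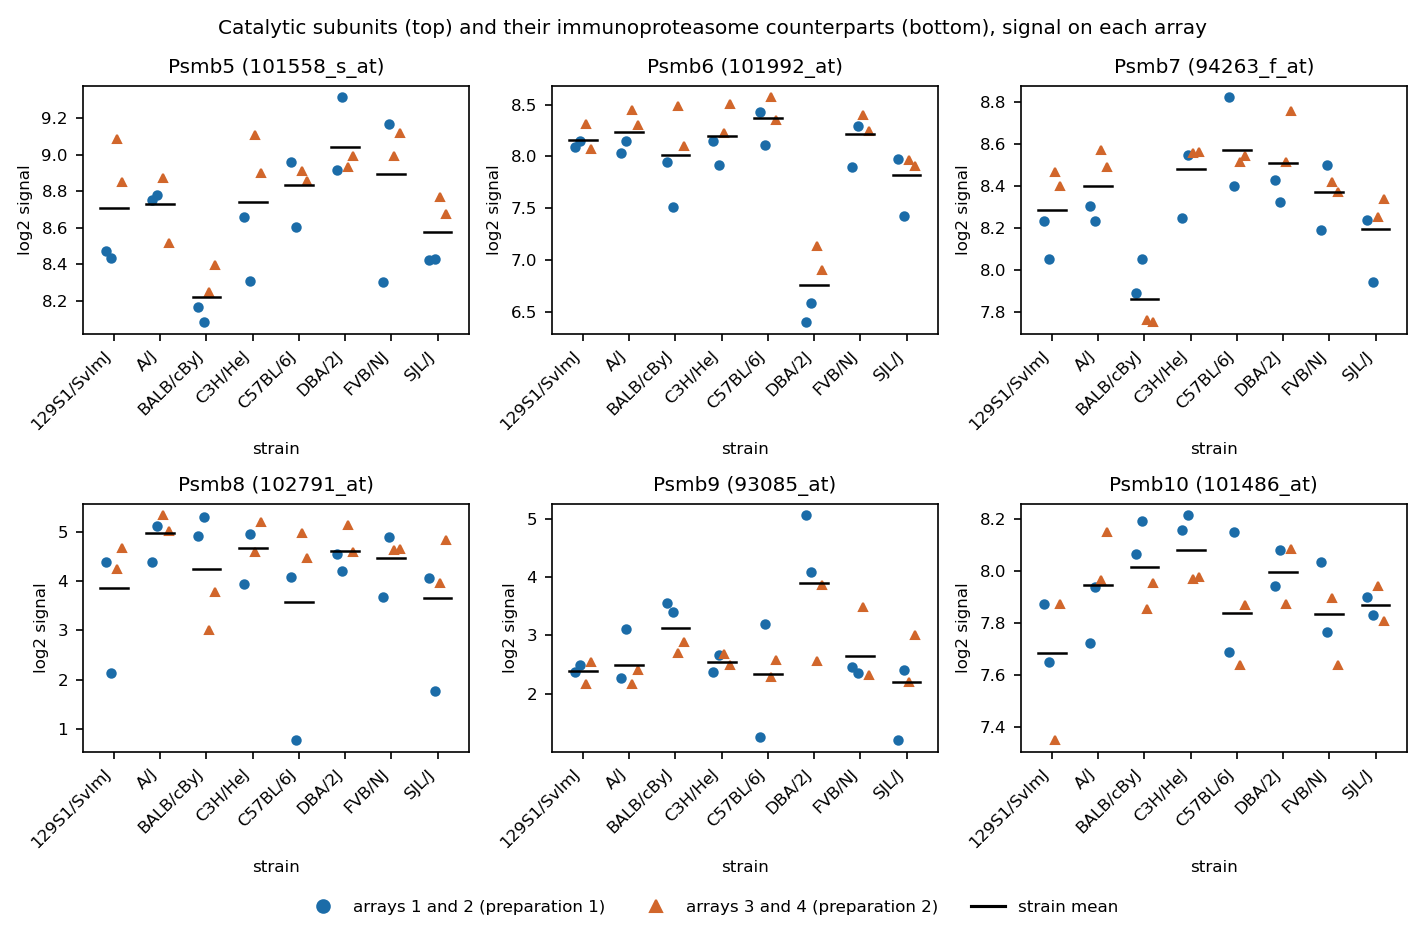
Log2 signal per array in the 8 strains of the constitutive catalytic subunits Psmb5, Psmb6 and Psmb7 and of their immunoproteasome counterparts Psmb8, Psmb9 and Psmb10. Psmb6 drops in DBA/2J (mean 6.76), Psmb7 is lowest in BALB/cByJ (7.86), and Psmb10 stays between 7.69 and 8.08.

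None of the activators was called in any strain. Psme1, a subunit of the interferon-inducible activator ring, ran from 6.56 ± 0.25 in BALB/cByJ to 7.16 in hippocampus_129S1SvImJ on 101510_at, and its BALB/cByJ difference of -0.44 had an adjusted p of 0.124, and of 0.0381 with the preparation block. Psme3, of the nuclear activator, ran from 6.95 in C3H/HeJ to 7.45 in DBA/2J (F-test adjusted p = 0.821). Psme4, the large single-chain activator, ran from 4.89 in DBA/2J to 5.73 in C57BL/6J (adjusted p = 0.611). Psme3ip1 ranged by 0.36 on the log2 scale.

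The chaperone probe sets had a median range of 0.81 over the strains, and 0 of 8 passed the F-test (2 with the preparation block, Psmg1 and the 94543_at probe set of Psmg3). Psmg2, which pairs with Psmg1 in building the alpha ring, was lowest in BALB/cByJ (3.96 ± 0.69) and highest in DBA/2J (5.39 ± 0.26), a range of 2.70-fold, with an F-test adjusted p of 0.743. Psmg1 ran from 5.57 in hippocampus_129S1SvImJ to 6.41 in DBA/2J (adjusted p = 0.467). Psmg4, the partner of Psmg3, was highest in BALB/cByJ (7.53) and lowest in C57BL/6J (6.93). Of the cap chaperones, Psmd5 was lowest in BALB/cByJ (7.26, adjusted p of the difference 0.146), Psmd9 was highest there (7.48) and Psmd10 lowest there (4.57).

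Genes read by several tested probe sets did not always agree among them. The Psmb1 probe sets 160875_at and 98113_at had r = 0.686 over the 8 strain means and were both lowest in BALB/cByJ. For Psmb4, a structural beta subunit, 98556_at had the widest range of all tested members, from 3.52 in A/J to 5.32 ± 0.44 in BALB/cByJ (3.47-fold, F-test adjusted p = 0.37), while 98557_f_at ranged by 0.31 and the r between them was -0.383. For Psmb5, 160559_at was highest in BALB/cByJ (6.76 ± 0.27, a difference of 0.55 with an adjusted p of 0.124), against the fall on 101558_s_at, with r = -0.25. For Psmc3, an ATPase, 93734_i_at and 93735_f_at had r = 0.794 and were both highest in C57BL/6J, and 100225_f_at, with r of 0.102 and 0.308 to them, had the narrowest range of all tested members (0.24).

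The members that were not tested had mean log2 signals of 1.61 to 4.26. They were Psmb8, Psmb9, 1 probe set each of Psmb1, Psmb4, Psmc5 and Psme1 that had another probe set tested, the cap genes Psmc4 (3.76 to 4.82) and Psmd2 (2.97 to 4.26), and Psmc3ip. Psmc3ip, a protein of meiotic recombination that was named for binding Psmc3, read 4.34, 4.95, 4.69 and 4.69 in FVB/NJ, whereas the other strain means were 0.75 to 2.72. All 4 FVB/NJ arrays lay above the highest other array, 4.10 in C3H/HeJ. With no filter on low signals it passed the FVB/NJ test and the F-test.

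In the other 5 strains 0 members were called. The share called in either direction among all tested probe sets was 0.751% in hippocampus_129S1SvImJ, 0.537% in A/J, 0.577% in C3H/HeJ, 0.389% in FVB/NJ and 0.55% in SJL/J. In SJL/J 14 of 17 core and 16 of 19 cap probe sets were below the mean of the other strains, against 47.6% of all tested probe sets. These counts equal those of BALB/cByJ. The SJL/J medians were -0.11 and -0.14, and -0.06 and -0.06 without its preparation 1. In A/J 3 of 17 core and 5 of 19 cap probe sets were below the mean of the other strains, with medians of 0.09 and 0.10. Of all tested probe sets 48.2% were. Without preparation 1 of A/J these were 0.15 and 0.26, and without its preparation 2 they were 0.05 and -0.02. Each strain's difference shares the other strains' arrays, BALB/cByJ included.

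The second preparation gave higher signals than the first for many members. In the fit with the preparation as a term 18 members were higher in preparation 2 (36.7%), where 25.6% of all tested probe sets were, and 2 were lower (4.08%), where 11.9% were. The sense-strand control signal also differed between preparations, but not in the same direction in all strains. Without BALB/cByJ its median was 6.14 in preparation 1 and 5.42 in preparation 2, and 7.16 in preparation 1 of SJL/J, C3H/HeJ and A/J. In these strains it was lower in preparation 2. In hippocampus_129S1SvImJ it rose from 4.91 and 4.93 to 5.37 and 5.48. C57BL/6J arrays rose from 5.11 and 5.25 to 5.64 and 5.39, and DBA/2J arrays from 5.29 and 5.28 to 5.64 and 5.50. The part of this control signal in the preparation differences was not tested. The cap accounted for 9 of the higher calls and the core for 5. The largest was Psmg2 (4.33 to 5.26, 8 of 8 strains, adjusted p = 0.000676), followed by the 160305_at probe set of Psmd11 (0.55, 8 of 8 strains, adjusted p = 0.00133) and Psmd14, the deubiquitinating subunit of the lid (0.50, 8 of 8 strains, adjusted p = 0.00115). Psmd9 (-0.68, lower in 7 of 8 strains, adjusted p = 0.000839) and the lid subunit Psmd3 (-0.22, adjusted p = 0.0187) were lower. Psmb6 rose by 0.31 in 8 of 8 strains. The count of members was 13 without array 1 of FVB/NJ, where 1999 of all 7453 tested probe sets were called. It also fell without either preparation of hippocampus_129S1SvImJ.

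Over the 32 arrays the median share of variance by strain was 22.5% for the members and 6.73% for all tested probe sets, and that between arrays of 1 preparation 54.1% and 58.3%. The largest shares by strain after Psmb6 were those of Psmc1 (69.8%), Psma6 (62.7%) and Psma2 (60.2%). Over the 8 strain means the median r between probe sets of different genes was 0.374 within the core, 0.327 within the cap and 0.319 between core and cap, against 0.005 for all tested pairs. Chaperones against core or cap had a median of 0.026. Without BALB/cByJ these medians were 0.190, 0.240, 0.120 and 0.074. The members with profiles most like the mean of the other core and cap members were Psmb7 (r = 0.96), the ubiquitin receptor Psmd4 (0.92), Psmd7 (0.90) and Psma2 (0.90), and least like it Psmg3 on 162356_r_at (-0.81) and Psmd3 (-0.78). These are correlations over 8 strain means, which share arrays and preparations.

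Genes around the proteasome were taken from lists of the ubiquitin system and of MHC class I presentation. Of the 17 tested probe sets of deubiquitinases and shuttle factors 0 passed the F-test (3 with the preparation block) and 2 were lower in BALB/cByJ, both of the shuttle factor Ubqln1 (-0.50 and -0.60). Of 17 for ubiquitin and its E1 and E2 enzymes 1 passed, that of the E2 enzyme Ube2d3 on 103754_at. It was lowest in BALB/cByJ at 7.81 and highest in DBA/2J at 8.60 (F-test adjusted p = 0.0362). The other Ube2d3 probe set, 93491_f_at, was lowest in BALB/cByJ at 6.36 and highest in C57BL/6J at 7.30 (F-test adjusted p = 0.751). Of 6 for assembly factors, 5 of them members, 0 passed (2 with the block). Of 13 for p97 and the degradation of proteins from the endoplasmic reticulum 0 passed (5 with the block), and the endoplasmic reticulum chaperone Hspa5 and the p97 cofactor Ufd1 were lower in BALB/cByJ (-0.56 and -0.65).

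Of 13 probe sets for transcription factors of the proteasome and stress response 2 passed the F-test, both of the small Maf gene Mafg. On 93406_at it ran from 5.16 in C57BL/6J to 6.88 in BALB/cByJ (adjusted p = 0.0101), and the BALB/cByJ difference was 0.70 (adjusted p = 0.0397). On 96147_at it ran from 5.50 in DBA/2J to 6.68 in SJL/J (adjusted p = 0.0177). Stat3, a transcription factor of cytokine signalling, was higher in BALB/cByJ on 99099_at (0.61, adjusted p = 0.0168). In MHC class I presentation 3 of 13 passed, namely 2 probe sets of H2-D1 and 1 of H2-K1, class I heavy chains whose probe sets can read related transcripts. H2-D1 on 97540_f_at ran from 6.06 in C3H/HeJ to 7.89 in DBA/2J (adjusted p = 0.00112). B2m, the light chain, was lower in BALB/cByJ (-1.10, adjusted p = 0.00824), as was Pdia3, a chaperone of class I loading (-0.79, adjusted p = 0.0445). Of 5 probe sets of the interferon response 0 passed (1 with the block) and 0 were called in BALB/cByJ or DBA/2J.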

How the data were processed

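The deposited intensities are linear signals, summarised per probe set by the authors with MAS5, as named without a version in the submitters' processing notes. No scaling target is given in the sources used here. The 2% trimmed mean of each array lay between 100.05 and 100.07, so no further scaling was applied, and the median signal per array ran from 29.4 to 43.7. For arrays, their number limits the precision. Control probe sets (66 of 12488) were left out, signals under 1 (2.14% of values) were set to 1, and values were put on a log2 scale. Testing was limited to the brightest 60% of probe sets by mean log2 signal. Gene names came from the platform annotation, and all 46 member genes matched RefSeq by Entrez number.

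The arrays of a preparation were averaged to give 16 values, and a linear model of the 8 strain means was fitted across all tested probe sets with limma 3.58.1 in R 4.3.3 (eBayes, variance trend on, residual df of 8). The strains were compared by a moderated F-test, and every strain with the average of the other 7 by a contrast. The difference between preparations came from the fit with the preparation as a block. P-values were adjusted by Benjamini-Hochberg over all tested probe sets in each test, with a threshold of 0.05. SDs are over 2 preparation means. The fit was tested on simulated data before use. Summaries and figures used Python 3.11.15 with numpy 2.4.6, pandas 2.3.3 and matplotlib 3.10.9.

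The preparation numbers were taken to pair the arrays across strains, because the series design ties them to the cRNA synthesis. By their titles the second-preparation arrays of BALB/cByJ were later than most of those of the other strains. The titles do not say whether their cRNA was made with that of the others. Over probe sets, the deviations of equally numbered preparations correlated for all 28 pairs of strains (r from 0.109 to 0.557, median 0.385), least for pairs with BALB/cByJ (0.109 to 0.244).

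The members, the lists of pathway and marker genes and the tests were chosen with earlier results of these data known. The rule for naming members took all that passed the F-test, those past a strain contrast (3 highest and 3 lowest where more than 6 passed; all the BALB/cByJ calls are named here because the text turns on them), the 10 widest ranges, Psmb5 to Psmb10, Psme1 to Psme4, genes with several tested probe sets, and members not tested. Other members are given in counts or beside the role of a named one. Psme2 was read only by probe sets with several symbols, which are not members. Alternatives covered the block, normalization, offset, filter, variance trend, unit of replication, day, the preparation of FVB/NJ array 2, and leaving out each array or preparation. Images and probe-level data were not used here.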

Additional observations from a re-analysis of the deposited data

Results flagged for a closer look

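In 104 groups of 4 arrays (13 probe sets over 8 strains), 8 had 1 array far from the other 3, where chance gives about 1 in 20. In SJL/J, Psmb6 read 7.43 on array 2 against 7.91 to 7.97, Psma6 read 8.69 on array 3 against 9.32 to 9.46, and the Psmg3 probe set 162356_r_at read 6.13 on array 2 against 7.27 to 7.41. In C57BL/6J, Psmd11 on 94796_at read 7.62 on array 2 against 8.49 to 8.56, and Psmd6 read 7.94 on the same array against 8.43 to 8.48. In C3H/HeJ, Psmd6 read 7.81 on array 2 against 8.57 to 8.62, and Psmb7 read 8.25 on array 1 against 8.55 to 8.56. In FVB/NJ, Psma2 read 8.81 on array 1 against 9.25 to 9.33. The single array was the low one in all 8 groups, and 5 of the 8 were array 2.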

How the results depend on the processing

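Because each strain is 1 pool, no alternative reaches the spread between animals, and the number of arrays limits what could be detected. None of the 15 member differences called in a strain reversed its direction under the alternatives run, and other members were not followed through them. Psmb6 in DBA/2J kept its call in 59 of 60 alternatives and Psma6 in BALB/cByJ in 59 of 59, whereas Psmd11 in DBA/2J kept it in 22 of 60. The F-test of Psma6 was lost without either preparation of BALB/cByJ (adjusted p = 0.0845 and 0.224), without its array 2 (0.252), without array 4 of SJL/J (0.073), with no variance trend (0.0968) and without all BALB/cByJ arrays (1.0). In the paired fit, with preparation as the block, 17 members passed the F-test against 3 (18.9% of all tested probe sets). In BALB/cByJ 24 were called against 12 (30.4% of all tested probe sets), in C57BL/6J 4 against 1 (6.63%) and in DBA/2J 5 against 2 (4.27%). The block moved no other count of calls. With arrays centred on their median, 9 passed the F-test (6.52% of all tested probe sets) and 19 in BALB/cByJ (15.7%). Between preparations 13 were then called against 20, where 2550 of all 7453 tested probe sets were called. The core and cap medians in BALB/cByJ were then -0.52 and -0.42, and -0.18 and -0.20 with an offset of 64. With no variance trend the counts were 1 by the F-test (3.45% of all tested probe sets), 6 in BALB/cByJ (6.43%) and 1 in DBA/2J (1.21%). With no filter, DBA/2J and FVB/NJ had 1 each. With single arrays as units and the preparation as a random block, 7 passed the F-test (8.95% of all tested probe sets) and 0 in C57BL/6J (3.74%). With the day as a term, 23 passed the F-test (31.2% of all tested probe sets). The strain counts were then 19 in BALB/cByJ (25.5%), 12 in DBA/2J (11.4%) and 9 in C57BL/6J (13.1%). They were 3 in A/J (4.09% of all tested probe sets), 2 in C3H/HeJ (4.33%) and 1 in SJL/J (3.38%). With array 2 of FVB/NJ counted in preparation 2, 6 passed in BALB/cByJ (4.2% of all tested probe sets) and 1 in DBA/2J (1.15%). Without all BALB/cByJ arrays 2 passed in C57BL/6J (1.99%). Leaving out 1 array or preparation gave 1 to 5 by the F-test, 1 to 17 in BALB/cByJ, 0 to 2 in C57BL/6J (0 without its preparation 2 or array 1 of C3H/HeJ), 0 (without preparation 1 of DBA/2J) to 4 (without array 1 of FVB/NJ) in DBA/2J, and 13 to 23 between preparations. Where 1 array was left out, the F-test called 3.58% to 5.1% of all tested probe sets. For the strain counts the share over all tested probe sets in the leave-out fits is not given here. The cause of the changes in these counts was not tested.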

Other observations

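Psme2, the partner of Psme1 in the interferon-inducible activator, was read by probe sets that also carry the symbol Psme2b. On the tested one, 100588_at, the strain means ran from 6.79 in SJL/J to 7.0 in BALB/cByJ (F-test adjusted p = 0.983, limma).

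Of the 10 genes on either side of Psmb6, 7 had a tested probe set, and 0 of these were called in DBA/2J. The differences from the other strains were -0.45 for Pld2 (adjusted p = 0.28), -0.51 for Eno3 (adjusted p = 0.393), -0.89 for Chrne (adjusted p = 0.558) and 0.19 for Rnf167 (adjusted p = 0.788).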
